A study of Homo sapiens with 6 samples.

Results

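NF-kappaB is a family of transcription factors that switch on genes of inflammation, cell survival and host defence. The subunits encoded by NFKB1, NFKB2, REL, RELA and RELB pair with each other, and in resting cells the pairs are held in the cytoplasm by inhibitor proteins called IkappaB, among them the products of NFKBIA, NFKBIB and NFKBIE. When a cell is stimulated, the IkappaB kinases mark the inhibitor for destruction and the freed subunits enter the nucleus, where they also switch on several of their own inhibitors, NFKBIA and the ubiquitin-editing enzyme TNFAIP3 among them. BCL3 is an atypical, nuclear member of the IkappaB family. In myeloid cells the pathway is known as the link between Toll-like, interleukin and tumor necrosis factor receptors and the inflammatory genes.

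The transcripts of these 10 genes were followed in HL60, an established human promyelocytic leukemia cell line. Cells were grown for 5 days with 1 µM tretinoin (all-trans retinoic acid, which drives HL60 toward granulocytes), dissolved in dimethyl sulfoxide (DMSO) at a final 0.1%, or with 0.1% DMSO and no tretinoin. Each condition was read on 3 Affymetrix HG-U133A arrays, which by the study's account were parallel hybridizations of 1 pooled labeled product, so the p-values given here measure the spread between hybridizations and not between cultures. All results come from 1 cell line, and their precision is limited by how few arrays there are. A probe set, the set of oligonucleotides that reads a transcript, was taken where its annotation names 1 of the 10 genes and no other. The rule found 15 of the 22283 probe sets on the array, for 9 of the 10 genes. Both probe sets for BCL3 are also annotated to the microRNA gene MIR8085, so BCL3 has no probe set under the rule and is not analysed here. Of the 15 probe sets, 12 were tested, since their scaled signal exceeded 20 on at least 3 arrays. None of them belongs to the signature transcripts that the study selected from these arrays.

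Arrays of the same condition correlated at 0.957 to 0.975 over log2 signals of the tested probe sets, and arrays of different conditions at 0.850 to 0.862. Tretinoin replicate 2 had the lowest mean signal, 91.3 against 121 to 152 on the other arrays, and so the largest scale factor, 1.36. The 3' to 5' signal ratio of ACTB, which reflects RNA integrity and labeling, ran from 1.38 to 1.42 in DMSO and from 1.14 to 1.17 in tretinoin. The same ratio of GAPDH overlapped between the conditions, with 1.06 to 1.17 in DMSO and 1.15 to 1.19 in tretinoin. The part of either ratio in the results was not tested. All 6 promyelocyte markers listed (MPO, ELANE, AZU1, PRTN3, CTSG and MS4A3) were called lower in tretinoin. ELANE was under 20 on every tretinoin array, so it passed the filter wholly through DMSO and had to differ. PRTN3 and CTSG exceeded 20 on 1 tretinoin array each. The summed signal of the 6 markers went from 3565 to 3752 down to 250 to 288. Most of the DMSO sum was MPO, at 2641 to 2802 in DMSO and 153 to 176 in tretinoin. Of 7 monocyte and macrophage markers on the array, 5 were called higher (among them CD14, CSF1R and VSIG4). The summed signal of the list was 198 to 240.1 in DMSO and 1918 to 2060.0 in tretinoin. Most of the tretinoin sum was VSIG4, at 10.2 to 33.1 in DMSO and 1035 to 1170 in tretinoin. Over all tested probe sets, 13.6% were called higher and 13.8% lower. CSF1R was at or under 20 on every DMSO array, so it passed the filter wholly through tretinoin and had to differ. CD163 and MRC1 were not tested, since neither exceeded 20 on 3 arrays. The part of this marker shift in the NF-kappaB values was not tested. Of 5 lymphocyte markers on the array, 1 was called higher (NKG7), CD3E and MS4A1 were not called, and CD3D and CD79A were not tested. Of 5 erythroid and platelet markers, HBB, PF4 and GP9 were tested by limma and not called. ALAS2 and PPBP were under 20 on every array and were not tested. In bulk RNA, fewer cells of a type and less RNA per cell cannot be told apart.

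The word that NF-kappaB pairs bind is written into the promoters of several of these genes, and the matches are shown as background. Their part in any change was not tested. RefSeq promoter windows (GRCh38.p14, from 250 bases before a transcription start to 50 after it) were at hand for 8 of the 10 genes, 13 windows in all, without RELB and NFKBIE. They were searched on both strands for a strict kappaB word, GGG followed by any 2 bases and then TTTCC. Capitals mark that word, or its reverse complement, inside 30 bases of the gene's own strand, each word lies upstream of a start, and the stretches of TNFAIP3 overlap.

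NFKB1, chr4:102501300-102501329: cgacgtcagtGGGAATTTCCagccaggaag
REL, chr2:60881518-60881547: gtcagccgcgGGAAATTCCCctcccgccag
NFKBIA, chr14:35404811-35404840: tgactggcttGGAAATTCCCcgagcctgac
NFKBIB, chr19:38899931-38899960: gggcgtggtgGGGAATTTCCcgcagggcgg
TNFAIP3, chr6:137867182-137867211: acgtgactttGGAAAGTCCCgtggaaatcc
TNFAIP3, chr6:137867194-137867223: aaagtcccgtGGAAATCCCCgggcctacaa
NFKB2, chr10:102394490-102394519: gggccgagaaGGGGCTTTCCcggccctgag
NFKB2, chr10:102395674-102395703: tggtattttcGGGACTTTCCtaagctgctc

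The strict word stood in 7 of the 13 member windows, for 6 of the 8 genes, against 1.91% of 35116 windows of the same length (2.33% of genes). The windows of NFKB1, REL, NFKBIA and NFKBIB carry the same 10 bases, GGGAATTTCC on one strand or the other, which stand in 51 of all windows, or 0.145%. Of the strict matches, the farthest from a start was centred 76 bases before that of NFKBIA and the nearest 16 bases before a start of NFKB2. A looser word, GGG followed by any 3 bases and then TTCC, takes in every strict match and stood in 6.52% of windows and in the same 7 member windows. With the classical kappaB consensus, an addition made after the data were seen, matches stood in 11.3% of windows and also in that of BCL3. Neither window of RELA held a match. The word was present in genes that rose with tretinoin and in genes that did not, as the following values show, and a match is a description of the letters and no measure of binding.

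**Figure D1:**
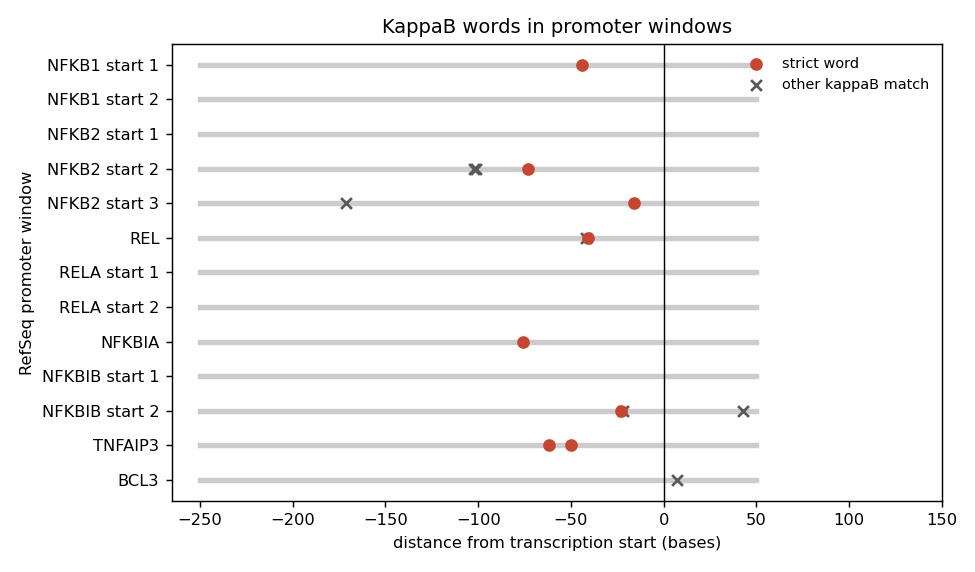
Positions of kappaB words in the 13 RefSeq promoter windows of 8 genes, as the distance in bases of the word's centre from the transcription start (0), with each gray bar running from 250 bases before to 50 after a start. Red circles are strict words and gray crosses are other matches, and the strict words lie between 76 and 16 bases before a start.

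After 5 days of tretinoin, 7 of the 15 probe sets, for 6 genes, were called higher and none was called lower by limma, with 5 not called and 3 not tested. The genes were the inhibitors NFKBIA and NFKBIE, TNFAIP3, and the subunits NFKB1, REL and RELB. A call needed an adjusted p (Benjamini-Hochberg over all 13374 tested probe sets) under 0.05 together with a fitted fold of 1.5 or more in either direction. By that rule 13.6% of all tested probe sets were higher and 13.8% were lower, or 27.5% in either direction. At an unadjusted p under 0.05, 1 member probe set (for NFKBIB) was lower. The signals of the 3 tretinoin arrays lay wholly above those of the 3 DMSO arrays for 8 of the 12 tested probe sets and wholly below for none, where 21.7% and 24.3% of all tested probe sets did so, 46.0% together. Of the 12 tested, 3 (both probe sets of REL and that of RELB) passed the filter with fewer than 3 DMSO arrays above 20. REL 206036_s_at passed wholly through the tretinoin arrays, so its groups had to differ. REL 206035_at and RELB passed mainly through them, each with 1 DMSO array above 20. Among the 8 probe sets above 20 on all 6 arrays, 5 were called higher (NFKBIA, NFKBIE, NFKB1 and both of TNFAIP3) and 6 had the tretinoin arrays wholly above. With that filter for all probe sets, 1355 of 9376 were called higher and 1499 lower. The share without overlap was not counted under that filter. Arrays do not allow the level of one gene to be set against that of another, and the signals below are compared only between conditions.

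**Figure D2:**
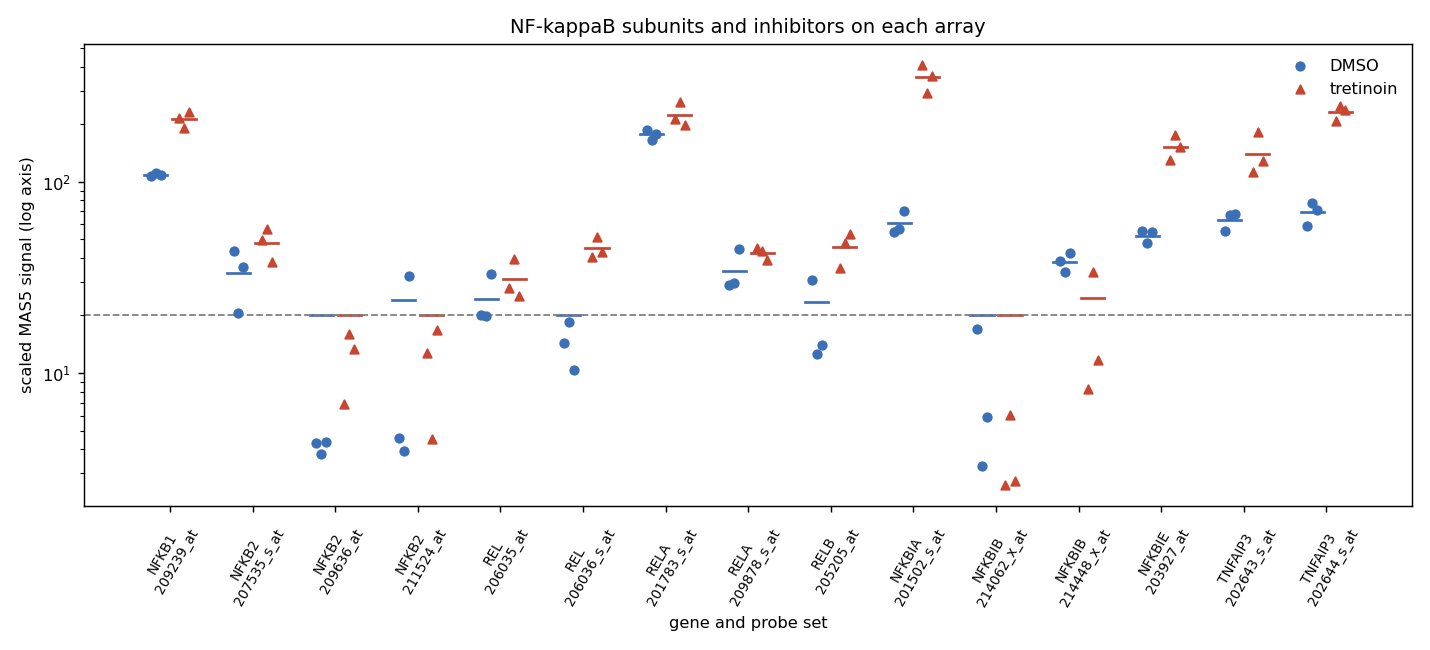
Scaled MAS5 signal (log axis) of the 15 probe sets on each of 3 DMSO arrays (blue circles) and 3 tretinoin arrays (red triangles). Bars are condition means after values under 20 (dashed line) were set to 20, and NFKBIA shows the widest gap, with 54.8 to 70.0 in DMSO and 293 to 408 in tretinoin.

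Among the inhibitors, the largest change was that of NFKBIA (chr14:35401513-35404749), which encodes IkappaB-alpha, the inhibitor that is rapidly destroyed and remade when the pathway is used. Its probe set 201502_s_at read 54.8, 56.9 and 70.0 in DMSO and 408, 293 and 357 in tretinoin (here and in what follows, in the order of the replicate numbers). No tretinoin array came near the DMSO range. The means were 60.6 ± 8.22 and 353 ± 57.7 (SD, n = 3 arrays each), a 5.83-fold rise, and the fitted log2 change was 2.54 ± 0.17 (SE) with a 95% interval from 2.13 to 2.95 (limma, adjusted p = 0.000102).

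NFKBIE (chr6:44258166-44265551) encodes IkappaB-epsilon, another cytoplasmic inhibitor that NF-kappaB is known to induce. Probe set 203927_at read 55.0, 47.6 and 54.4 in DMSO and 130, 176 and 152 in tretinoin. The groups stood well apart, and no array was near the floor. The rise was 2.92-fold, from 52.3 ± 4.12 to 153 ± 23.3, with a log2 change of 1.54 ± 0.16 (SE; limma, adjusted p = 0.000445).

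NFKBIB, which encodes IkappaB-beta, gave the only negative fitted change among the 12 tested probe sets. Probe set 214448_x_at read 38.4, 33.7 and 42.5 in DMSO and 8.22, 33.8 and 11.6 in tretinoin. The arrays overlapped, because tretinoin replicate 2 lay within the DMSO range while the other tretinoin arrays fell under 20. With these set to 20, the DMSO mean was at least 1.55-fold that of tretinoin, and the probe set was not called (limma, log2 change -0.67 ± 0.23, adjusted p = 0.0660). The call turned on the scaling and on that array. It was made as lower with median scaling (adjusted p = 0.0269), with quantile normalization (0.0271), without scaling (0.0138) and without tretinoin replicate 2 (0.00689), and over the 16 alternatives the adjusted p ran from 0.00689 to 0.563. The other probe set, 214062_x_at, was at or under 17.1 on every array and was not tested. Both carry the suffix that Affymetrix gives to probe sets that can bind transcripts of other genes.

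TNFAIP3 (chr6:137866349-137883312) encodes a ubiquitin-editing enzyme that damps signaling upstream of the IkappaB kinases. Probe set 202644_s_at read 59.0, 77.6 and 71.3 in DMSO and 208, 248 and 236 in tretinoin, a 3.33-fold rise from 69.3 ± 9.47 to 231 ± 20.6 (limma, log2 change 1.74 ± 0.15, adjusted p = 0.000253). Probe set 202643_s_at read 55.6, 66.9 and 67.8 in DMSO and 112, 181 and 128 in tretinoin, a 2.21-fold rise from 63.4 ± 6.80 to 140.5 ± 36.1 (limma, log2 change 1.12 ± 0.20, adjusted p = 0.00566). Neither probe set had overlapping groups. The rise differed between them by 0.62 on the log2 scale, at an exact two-sided permutation p of 0.1 over the 6 arrays. That is the smallest p this design allows, so the test cannot decide whether the probe sets differ. Its adjusted p was 0.15 over 3 same-gene pairs, among them that of REL.

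Of the subunits, NFKB1 (chr4:102501359-102617302), the precursor gene of the p50 subunit, had the steadiest signals. Probe set 209239_at read 107, 111 and 108 in DMSO and 215, 192 and 230.3 in tretinoin. The DMSO arrays differed from each other by a few units and all tretinoin arrays lay far above them. The mean rose 1.96-fold, from 109 ± 1.91 to 212 ± 19.3, with a log2 change of 0.96 ± 0.13 (limma, adjusted p = 0.00136).

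REL (chr2:60881574-60931612) encodes c-Rel, a subunit that activates transcription and is best known from lymphoid and myeloid cells. Probe set 206036_s_at read 14.3, 18.6 and 10.4 in DMSO and 40.6, 51.4 and 43.2 in tretinoin. All DMSO arrays were under the floor of 20, so the mean of 45.1 ± 5.65 in tretinoin was at least 2.25-fold higher (limma, adjusted p = 0.000801). That p rests on a DMSO group without spread, since the floor made its 3 values equal. With a floor of 40, which hides most of this range, the call was lost (adjusted p = 0.336). Without any 1 of the tretinoin arrays the probe set no longer passed the filter and was not tested. The other probe set, 206035_at, read 20, 19.8 and 33.1 in DMSO and 27.8, 39.7 and 25.3 in tretinoin. There the groups overlapped and no call was made (limma, log2 change 0.36 ± 0.26, adjusted p = 0.359). As 1 of the 3 same-gene pairs, these probe sets gave an exact two-sided permutation p of 0.1, the smallest possible (adjusted p = 0.15). No reading is made of that comparison. All DMSO arrays of 206036_s_at, and those of 206035_at except replicate 3, lay at or under the floor.

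RELB (chr19:45001464-45038192) encodes the subunit that pairs mainly with the product of NFKB2 in the noncanonical branch of the pathway. Probe set 205205_at read 30.5, 12.6 and 13.9 in DMSO and 35.5, 48.0 and 53.2 in tretinoin. The groups did not overlap, but DMSO replicate 1 came close to tretinoin replicate 1. The mean in tretinoin, 45.6 ± 9.12, was at least 1.94-fold higher (limma, adjusted p = 0.0178). This call was lost without DMSO replicate 2 (adjusted p = 0.0608), DMSO replicate 3 (0.0596), tretinoin replicate 2 (0.0502) or tretinoin replicate 3 (0.0618), with no filter (0.0901) and with a floor of 40 (0.260).

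RELA, which encodes the p65 subunit of the most common NF-kappaB pair, was read by probe sets that gave nearly the same small change and no call. Probe set 201783_s_at read 188, 166 and 178 in DMSO and 213, 260.2 and 198 in tretinoin. Its groups did not overlap, yet the 1.26-fold difference missed the threshold (limma, adjusted p = 0.140), and the 95% interval of the fitted fold ran from 0.986 to 1.60. Probe set 209878_s_at read 28.7, 29.6 and 44.4 in DMSO and 44.9, 43.6 and 38.9 in tretinoin, with overlapping groups and an interval from 0.917-fold to 1.74-fold (limma, adjusted p = 0.243). A change of NFKBIA's size lies outside both intervals, and one of 1.5-fold lies inside both.

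NFKB2, the gene of the p100 precursor that yields p52, was weakly measured. Probe set 207535_s_at read 43.6, 20.6 and 35.8 in DMSO and 49.5, 56.3 and 38.3 in tretinoin. The groups overlapped and no call was made (limma, log2 change 0.58 ± 0.30, 95% interval from -0.12 to 1.28, adjusted p = 0.191). Its other probe sets were not tested, since 209636_at was under 20 on every array and 211524_at exceeded 20 only on DMSO replicate 3, at 32.0.

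**Figure D3:**
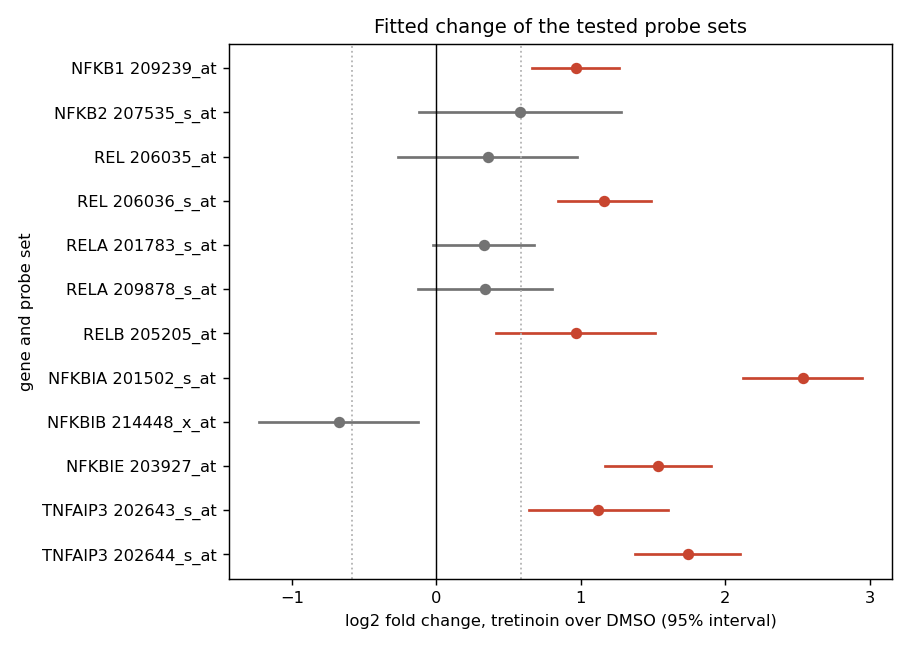
Fitted log2 fold change of tretinoin over DMSO for the 12 tested probe sets, with 95% intervals from limma (n = 3 arrays per condition). Red marks a probe set called higher, gray one not called, and dotted lines mark 1.5-fold, and the interval of NFKBIA, 2.13 to 2.95, starts above the upper end of every other one.

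Upstream of the inhibitors, kinases and adaptors carry the signal from receptors to the IkappaB kinases. Of 27 genes listed, 18 were tested by their brightest probe set, and 6 were higher, 1 was lower and 11 did not pass. Among all 8167 genes tested, 13.4% were higher and 14.3% lower. The list's median log2 change was 0.36, against -0.04 over all genes. MYD88, the adaptor of Toll-like and interleukin-1 receptors, read 160.1, 180.0 and 168 in DMSO and 646, 673 and 650 in tretinoin. It rose 3.88-fold with a log2 change of 1.96 ± 0.12 (SE; limma, adjusted p = 6.65e-05). TRAF6, the ubiquitin ligase downstream of MYD88, was at least 2.10-fold higher, with DMSO replicate 1 under 20. TANK, a scaffold that binds TRAF proteins, went from 124 ± 1.27 to 249 ± 48.5 (SD, n = 3), and RIPK2, the kinase of NOD receptors, rose 1.63-fold. IRAK1, a kinase recruited by MYD88, fell from 724, 690 and 779 to 327, 298 and 289, which is 2.40-fold lower (limma, adjusted p = 0.000403). The genes of the IkappaB kinase complex itself, CHUK, IKBKB and IKBKG, were not called, with log2 changes of -0.26, 0.05 and 0.40. The dimmer probe set of IKBKG was called higher, at 0.64 ± 0.17 (SE; limma, adjusted p = 0.0274), and that of TANK was not called (adjusted p = 0.121). Without scaling of the arrays, only 2 of the 18 were called higher.

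The ubiquitin machinery and further negative regulators gave 4 higher, 2 lower and 10 not called among 16 tested genes, with a median log2 change of -0.04, the same as over all genes. CYLD, a deubiquitinase that damps the pathway, read 77.6, 58.7 and 33.6 in DMSO and 99.7, 119 and 107 in tretinoin, 1.92-fold higher (limma, adjusted p = 0.0369). The ubiquitin ligase ITCH was 1.75-fold higher, the partner of TNFAIP3 called TNIP1 1.53-fold and NFKBIL1 at least 1.62-fold. RBCK1, part of the linear ubiquitin ligase, was 1.67-fold lower and IRAK3, an inhibitory kinase relative, 1.68-fold lower. All 5 tested probe sets of CYLD were called higher, the dimmer ones at adjusted p from 3.23e-05 to 0.00913 (limma). Of the dimmer ones, 3 had DMSO arrays all under 20, so they passed the filter wholly through tretinoin and had to differ. The other tested probe sets of ITCH were not called (limma, adjusted p = 0.137 and 0.542). By brightest probe set these calls were fragile, and none of the 4 rises was called without tretinoin replicate 3, with no filter or with a floor of 40.

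Of 45 textbook targets of NF-kappaB outside the family, 42 had a probe set of their own and 31 were tested. Of these 31, 17 were higher, 1 was lower and 13 did not pass. Among all 8167 genes tested, 13.4% were higher and 14.3% lower. CCL20 and F3 were under 20 on every DMSO array, so they passed the filter wholly through tretinoin and had to differ. With a signal above 20 on all 6 arrays, 13 of 24 targets were called higher, against 1355 of 9376 probe sets. The median log2 change of the 31 targets was 0.91, against -0.04 over all genes. Like the members and the other lists, this list was chosen with earlier results of these data known, which limits any comparison with all genes. Many of the targets also respond to other factors, so the list describes them and does not measure NF-kappaB activity. The largest rises were those of the chemokines CCL4 (at least 44.0-fold) and CCL2 (36.7-fold). CCL4 exceeded 20 on 1 of the DMSO arrays and read 882 to 923 in tretinoin, and CCL2 read 99.5 to 158 in DMSO and 4719 to 5188 in tretinoin. BCL2A1, a survival protein of the BCL2 family, read 73.2, 73.0 and 107 in DMSO and 559, 435 and 637 in tretinoin, 6.44-fold higher. The chemokine CCL20 was under 20 on every DMSO array and 125, 68.3 and 131 in tretinoin, at least 5.39-fold higher. PLAU, the urokinase protease, went the other way, from 100.02 ± 14.3 to 34.8 ± 7.54, which is 2.88-fold lower. TNF and IL1B, cytokines that both activate the pathway and are induced by it, were named after their values were seen. TNF rose 2.55-fold from 48.5 ± 9.55 to 124 ± 5.59 and IL1B 2.77-fold from 59.4 ± 11.1 to 165 ± 13.7 (limma, adjusted p = 0.00103 and 0.000787).

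**Figure D4:**
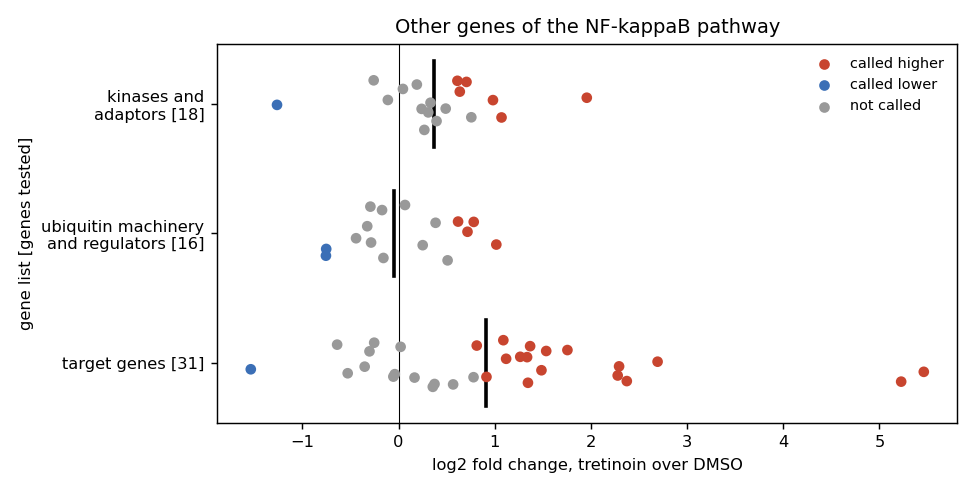
Log2 fold change of tretinoin over DMSO for each tested gene (points) of the lists of 18 kinases and adaptors, 16 genes of ubiquitin machinery and regulators and 31 target genes, each by its brightest probe set. Red is called higher, blue called lower and gray not called, and black bars mark list medians of 0.36, -0.04 and 0.91.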

How the data were processed

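The authors deposited linear MAS5 signal intensities (version not given in the sources used here) for 6 HG-U133A arrays, before the scaling and floor of 20 that their methods describe. Here the arrays were brought to the mean signal of DMSO replicate 1 by 1 factor each, signals under 20 were raised to 20, and limma 3.58.1 (lmFit and eBayes, R 4.3.3) was run on log2 values with 1 mean per condition over all 13374 probe sets above 20 on at least 3 arrays, with Benjamini-Hochberg adjustment. Folds are ratios of condition means, given as bounds where an array was at the floor. The fit was tested on simulated data. Symbols came from GEO's platform annotation, updated by gene ID to RefSeq (GRCh38.p14), and 19071 probe sets had 1 symbol. Promoter windows and loci are RefSeq's.

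The members and lists were chosen with earlier results of these data known. Named were all member probe sets, the markers that bear on them, and of each list the 4 largest rises and 4 largest falls among called genes. CHUK, IKBKB, IKBKG, TNF and IL1B were added after their values were seen. Alternatives were other scalings, floors, filters and variances, a replicate block, no fold minimum, and each array left out. Python 3.11.15 and matplotlib 3.10.9 drew the figures.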

Additional observations from a re-analysis of the deposited data

How the results depend on the processing

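NFKBIA, NFKBIE, NFKB1 and both probe sets of TNFAIP3 kept their call in all 17 alternatives, with log2 changes of 2.26 to 2.67, 1.30 to 1.65, 0.76 to 1.04, 0.92 to 1.27 (202643_s_at) and 1.53 to 1.83 (202644_s_at). The count of member probe sets called higher was 5 to 7, and 5 to 7 without each array. The count called lower was 0, and 1 (NFKBIB) without scaling, with median scaling and with quantile normalization, and 0 to 1 without each array. Without scaling, which put the median log2 change of all tested probe sets at -0.21, 1142 were called higher and 2312 lower, against 1824 and 1850, and the kinases and adaptors had 2 higher. The targets called lower numbered 3 without scaling, 2 with median scaling, quantile normalization, a signal above 20 on all 6 arrays, no fold minimum or any probe set of the gene, and 1 to 2 without each array. The regulators called higher numbered 4, but 1 without scaling, 2 with median scaling, quantile normalization or a floor of 10, 0 with a floor of 40, no filter or the replicate block, and 0 to 2 without each array. Those called lower numbered 2, but 1 with a floor of 40, 16 added to each signal and no floor or no filter, and 1 to 3 without each array. The causes were not tested. The replicate numbers are not said to pair arrays, same-numbered arrays did not deviate together (correlations of -0.03, -0.01 and 0.07), and with the replicate block 6 member probe sets were higher, RELB at an adjusted p of 0.0572. With a floor of 40, every array of REL 206035_at was at the floor, so it has no value there.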
